A study of Homo sapiens with 7 samples.

Results

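The miR-106b-25 cluster is a group of 3 microRNAs, miR-106b, miR-93 and miR-25, encoded together on one strand inside the MCM7 gene. They were grouped by that shared locus and not by a measured value, but the choice was made with earlier results of these data known. They make up 3 of the 377 human microRNAs read by TaqMan Array A, a quantitative RT-PCR card with 1 assay per microRNA. The samples were 7 cell lines derived from MDA-MB-435-GFP, an established human cancer line that carries a stable green fluorescent protein gene and whose breast or melanoma origin has been disputed. Of these, 3 were oligometastatic, named L1-R2 (4T, 3T, 8T), and 4 were polymetastatic, named L1Mic-R2 (2T, 3T, 7T, 8T). All were recovered from the lungs of athymic female mice, each line from a separate animal, after a further passage in animals of cells from earlier lung isolates. The L1-R2 lines descend from L1-R1 cells, taken from macrometastases of 1 lung, and the L1Mic-R2 lines from L1Mic-R1 cells, taken from a part of that same lung without macrometastases, so each group goes back to a single earlier line. All 7 lines share the GFP gene and G418 selection, and each is a cultured population and not a tumour. The study's methods describe tail vein injection, whereas the labels name the mammary fat pad. The labels also give SYBR Green as the dye, although their own protocol and the methods name TaqMan reagents.

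One card was run for each line, so the spread between lines holds animal, culture and card together. The cards were numbered 1 to 3 for L1-R2 and 4 to 7 for L1Mic-R2, so card order and group cannot be told apart. The number of microRNAs detected, meaning a threshold cycle (Ct) below 38, ranged from 172 to 184 per line in L1-R2 and from 160 to 172 in L1Mic-R2. The Ct is the cycle at which fluorescence crosses a set threshold; it is on a log2 scale, and a lower Ct means more RNA. The small RNA U6 had a raw Ct between 15.97 and 16.77. The small nucleolar RNAs RNU44 and RNU48 had mean raw Ct of 24.69 and 19.83 in L1-R2 against 25.58 and 20.55 in L1Mic-R2, with overlap. Of 4 smooth muscle and fibroblast markers, miR-143, miR-145 and miR-214 were Undetermined in all 7 lines and miR-199a-3p was detected in 3. Of 5 blood markers, miR-451 and miR-142-5p were Undetermined in all, miR-142-3p was detected in 2 lines, miR-486-5p in 1 and miR-223 in 4, the last with a log2 fold change of 3.07 (SE 1.26, limma adjusted p = 0.245). Of 7 epithelial markers, 2 were detected in all lines, and 4 were tested. Of these 4, miR-200b alone had an unadjusted p under 0.05 by limma, against 19.3% of all 181 microRNAs tested. It had a log2 fold change of -1.39 (SE 0.49, limma adjusted p = 0.176) at a raw Ct of 32.57 to 36.76. The endothelial microRNA miR-126 was at a raw Ct of 28.71 to 35.06, with a log2 fold change of 3.44 (SE 0.98) toward L1Mic-R2 in limma, adjusted p = 0.104. Of the 5 melanocyte markers on the card, 4 were detected in all 7 lines. By limma, 1 of the 5 had an adjusted p under 0.05, against 4.97% of all microRNAs tested. It was miR-509-3-5p, lower in L1Mic-R2 with a log2 fold change of -2.71 (SE 0.53, adjusted p = 0.0392). At an unadjusted p under 0.05, 3 were lower in L1Mic-R2, against 9.94% of all tested, and 0 were higher, against 9.39%. miR-211, detected in 5 lines, had a log2 fold change of -6.57 (SE 2.97, limma adjusted p = 0.267). The part of these markers in the cluster's values was not tested.

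A microRNA is cut from a hairpin in a longer transcript, loaded into an Argonaute protein, and directed to messenger RNAs mainly by its seed, the short stretch near its 5′ end. The cluster lies in an intron of MCM7, which encodes a subunit of the replicative helicase, and its microRNAs are made from the same host transcript, which E2F factors activate. miR-106b and miR-93 belong to the miR-17 seed family, known for restraining the cell cycle inhibitor p21 and the TGF-β receptor, whereas miR-25 belongs to the miR-92 seed family, known for targeting BIM.

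In the GRCh38.p14 assembly, RefSeq places MCM7 at chr7:100092728-100101397 on the minus strand, and all 3 hairpins lie within it. The miR-106b mature sequence lies at chr7:100094043-100094063, that of miR-93 at chr7:100093815-100093837 and that of miR-25 at chr7:100093571-100093592. The 3 hairpins together span 515 bases, with gaps of 145 and 124 bases between neighbours. The mature RefSeq sequences are shown because they divide the cluster into its 2 seed families; the seed (bases 2 to 8) is in capitals.
miR-106b: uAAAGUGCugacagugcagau
miR-93: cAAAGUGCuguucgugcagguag
miR-25: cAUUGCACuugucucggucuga

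Relatives from the paralogous clusters, one running from miR-17 to miR-92a and one from miR-106a to miR-363, are shown beside them, because assays for near-identical sequences are compared below.
miR-17: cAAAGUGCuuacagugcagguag
miR-20a: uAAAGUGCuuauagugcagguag
miR-20b: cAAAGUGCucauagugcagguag
miR-106a: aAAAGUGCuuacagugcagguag
miR-92a: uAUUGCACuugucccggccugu
miR-363: aAUUGCACgguauccaucugua
miR-93 differed from miR-17 and from miR-20b by 3 base edits each, and from its own cluster partner miR-106b by 7. miR-25 differed from miR-92a by 4 edits, and miR-17 from miR-106a by 1. The assay names give no arm; the older plain names were matched to miR-106b-5p, miR-93-5p and miR-25-3p. Whether an assay also reads a relative was not tested.

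All 3 members were detected in all 7 lines, well above the detection limit. miR-93 was read earliest, between 23rd and 31st of the 377 microRNAs by raw Ct, miR-106b was between 39th and 45th, and miR-25 was between 64th and 72nd. This order of Ct values held in every line. Ct values of different assays also carry the efficiency of each assay, so the order is one of Ct and not of copies per cell.

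miR-106b had a raw Ct of 26.60 (4T), 27.61 (3T) and 27.29 (8T) among the oligometastatic lines. It had a raw Ct of 27.31 (2T), 27.11 (3T), 27.27 (7T) and 27.72 (8T) among the polymetastatic ones. The groups overlapped, with line 4T of L1-R2 lowest and line 8T of L1Mic-R2 highest in Ct. The raw means were 27.17 ± 0.52 (SD, n = 3) for the L1-R2 group against 27.35 ± 0.26 (SD, n = 4) for L1Mic-R2.

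miR-93, the member read earliest, had a raw Ct of 25.95 (4T), 26.26 (3T) and 25.79 (8T) among the oligometastatic lines. It had a raw Ct of 25.66 (2T), 25.49 (3T), 25.50 (7T) and 25.79 (8T) among the polymetastatic ones. The 4 L1Mic-R2 lines were below the lowest L1-R2 line, but lines 8T of both groups were nearly equal. The raw means were 26.00 ± 0.24 (SD, n = 3) and 25.61 ± 0.14 (SD, n = 4).

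miR-25 had a raw Ct of 28.84 (4T), 28.98 (3T) and 28.84 (8T) among the oligometastatic lines. It had a raw Ct of 29.29 (2T), 29.40 (3T), 29.35 (7T) and 29.27 (8T) among the polymetastatic ones. Here the order of the groups was opposite to that of miR-93, with all 4 L1Mic-R2 lines above all 3 L1-R2 lines in Ct. The raw means were 28.89 ± 0.08 (SD, n = 3) and 29.33 ± 0.06 (SD, n = 4). Thus 2 of the 3 members had groups that did not overlap in raw Ct, as did 20.4% of the 181 microRNAs tested.

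**Figure D1:**
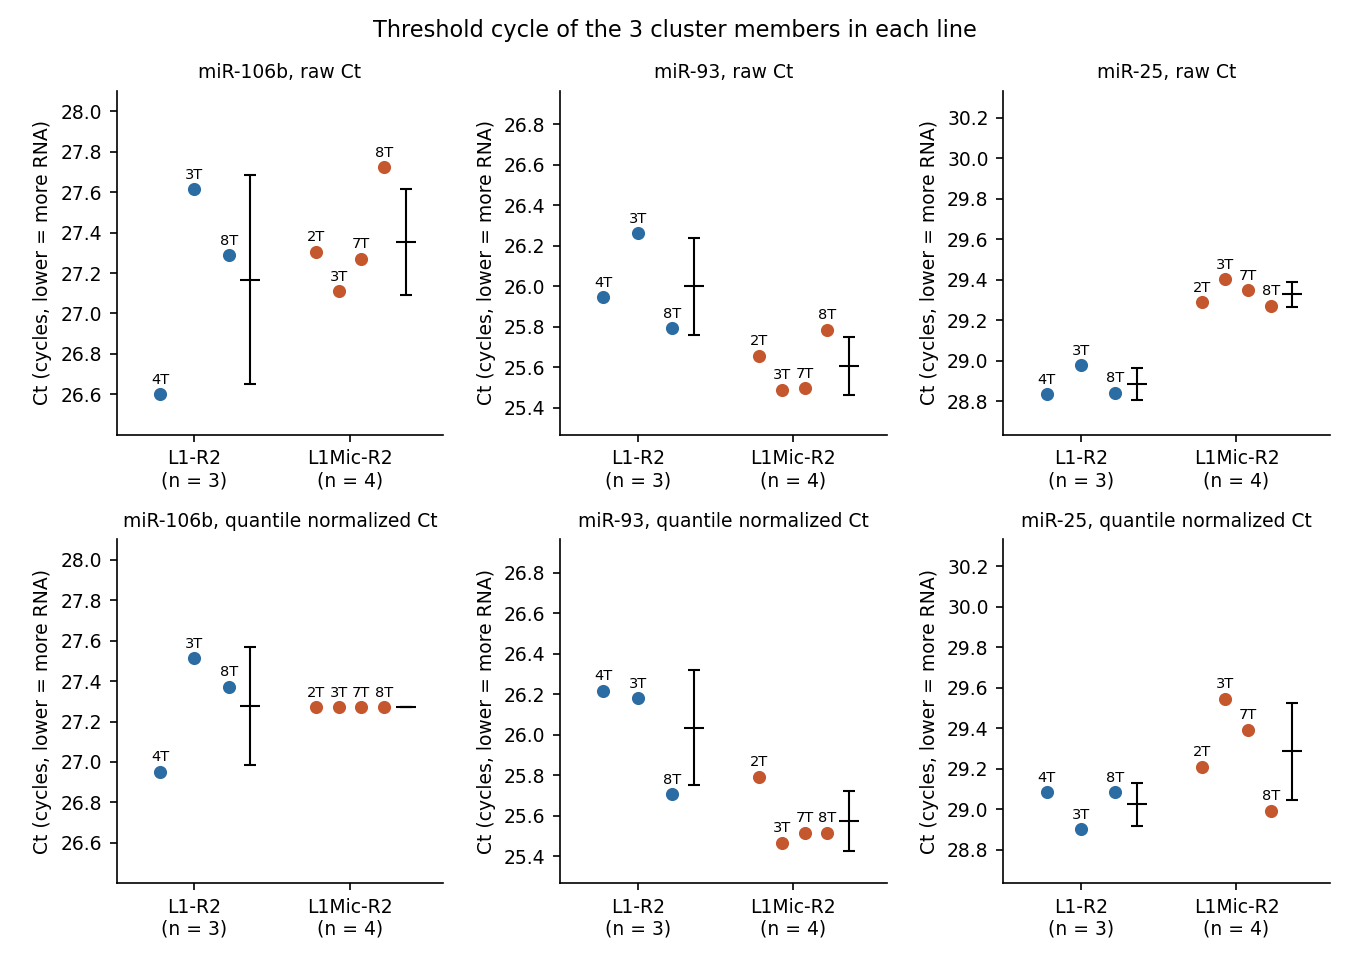
Raw and quantile normalized Ct (cycles, log2 scale, lower is more RNA) of miR-106b, miR-93 and miR-25 in the 3 L1-R2 and 4 L1Mic-R2 lines. Each point is 1 line marked with its number, dashes are group means and bars are SD; the raw groups overlap for miR-106b, and all 3 overlap after normalization.

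The main comparison asked whether the cluster's level differed between polymetastatic and oligometastatic lines. After quantile normalization, which gives every card the same distribution of Ct values, no member passed the test of a difference between the groups. The groups overlapped for all 3 members, against 19.3% of microRNAs tested whose groups did not overlap. By limma, 0 of 3 members passed an adjusted p of 0.05, against 4.97% of the 181 microRNAs tested, and 0 of 3 passed it unadjusted, against 19.3%. The unadjusted count depended on the setting: miR-93 was under 0.05 in 8 of 19 alternatives and miR-25 in 1, raw Ct.

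miR-106b had a normalized Ct of 26.95 (4T), 27.51 (3T) and 27.37 (8T) among the oligometastatic lines, and 27.27 in all 4 L1Mic-R2 lines, where it held the same rank on each card. Its log2 fold change, L1Mic-R2 over L1-R2, was 0.01 (SE 0.18, 95% interval -0.42 to 0.44, limma adjusted p = 0.976). The sign of this value turned with raw Ct and with U6 as the reference, at -0.19 and -0.13.

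miR-93 had a normalized Ct of 26.22 (4T), 26.18 (3T) and 25.71 (8T) among the oligometastatic lines. Its normalized Ct was 25.79 (2T), 25.47 (3T), 25.52 (7T) and 25.52 (8T) among the polymetastatic ones. Only line 8T of L1-R2 fell among the L1Mic-R2 values. The log2 fold change was 0.46 (SE 0.19, 95% interval -0.0041 to 0.93), with a limma adjusted p = 0.245. Relative to U6 on the same card its groups did not overlap, at 9.68 ± 0.28 cycles (SD, n = 3) above U6 for L1-R2 against 9.23 ± 0.15 (SD, n = 4) for L1Mic-R2. This held for 1 of the 3 members, and the share over all microRNAs was not computed on this scale. That share was 20.4% in raw Ct and 19.3% after quantile normalization. For miR-93, limma on the U6 scale gave adjusted p = 0.253.

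miR-25 had a normalized Ct of 29.09 (4T), 28.90 (3T) and 29.09 (8T) among the oligometastatic lines. Its normalized Ct was 29.21 (2T), 29.55 (3T), 29.39 (7T) and 28.99 (8T) among the polymetastatic ones. Line 8T of L1Mic-R2 fell among the L1-R2 values, although in raw Ct it did not. The log2 fold change was -0.26 (SE 0.18, 95% interval -0.71 to 0.18), with adjusted p = 0.488 by limma.

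The choice of reference shifted all microRNAs together: the median log2 fold change of the 181 was 0.06 after quantile normalization, -0.25 with raw Ct, -0.19 against U6 and 0.56 against the small nucleolar RNAs RNU44 and RNU48. Relative to that median, miR-93 lay above by 0.40 after quantile normalization and by 0.64 on each of the other scales, whereas miR-25 lay at -0.32 and -0.20 and miR-106b at -0.05 and 0.06. The other scales differ only by a value per card shared by all microRNAs, so distances from the median are equal on them by construction. With so few lines, the interval after quantile normalization leaves room for a change of up to 0.93 on the log2 scale in miR-93. With RNU44 and RNU48 as the reference, its log2 fold change itself was 1.20 (limma adjusted p = 0.229). A Ct from a whole culture also cannot tell fewer cells holding a microRNA from less of it per cell.

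Because the members are read on the same card, the amount of RNA loaded cancels in their ratios as far as their assays respond alike to it, which was not tested. In raw Ct, miR-93 was higher relative to both partners in L1Mic-R2, by differences of a size common among pairs of microRNAs on these cards. With quantile normalized Ct, neither ratio had an adjusted p under 0.05. The log2 ratio of miR-93 to miR-25 was 2.89 (4T), 2.72 (3T) and 3.05 (8T) among the oligometastatic lines and 3.63 (2T), 3.91 (3T), 3.85 (7T) and 3.49 (8T) among the polymetastatic ones. The groups stood 0.436 apart at their nearest lines. The mean went from 2.89 ± 0.17 (SD, n = 3) to 3.72 ± 0.20 (SD, n = 4), a difference of 0.84 (SE 0.14) or 1.79-fold, with an exact two-sided permutation p of 0.0286 (0.0429 by Benjamini-Hochberg over the 3 ratios).

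The log2 ratio of miR-93 to miR-106b, which share a seed, was 0.66 (4T), 1.35 (3T) and 1.495 (8T) among the oligometastatic lines and 1.65 (2T), 1.62 (3T), 1.78 (7T) and 1.94 (8T) among the polymetastatic ones. The groups did not overlap, but line 4T of L1-R2 stood below the other 2 lines of its group. The mean went from 1.17 ± 0.45 (SD, n = 3) to 1.75 ± 0.14 (SD, n = 4), a difference of 0.58 (SE 0.23) or 1.49-fold, with an exact permutation p of 0.0286 (adjusted 0.0429). Without L1-R2 line 4T the difference was 0.32, and with quantile normalized Ct it was 0.45 (exact permutation p = 0.0857, adjusted 0.129). The miR-93 to miR-25 ratio with quantile normalized Ct differed by 0.72 (exact permutation p = 0.0286, adjusted 0.0857).

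The log2 ratio of miR-25 to miR-106b was -1.72 ± 0.46 (SD, n = 3) for L1-R2 against -1.98 ± 0.31 (SD, n = 4) for L1Mic-R2, with overlap. The difference was -0.26 (SE 0.29, exact permutation p = 0.4). An exact permutation test of 3 lines and 4 cannot go below 0.0286, the value both ratios with miR-93 reached.

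Ratios that separate the groups were common on these cards. Among all 9045 pairs of the 135 microRNAs detected in every line, 26.5% did not overlap between the groups. The median absolute difference was 0.64 on the log2 scale, and 38.3% of pairs differed by at least as much as miR-93 and miR-25, 53.7% by at least as much as miR-93 and miR-106b. The shift of miR-93 against its partners was thus within the range of many other pairs.

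**Figure D2:**
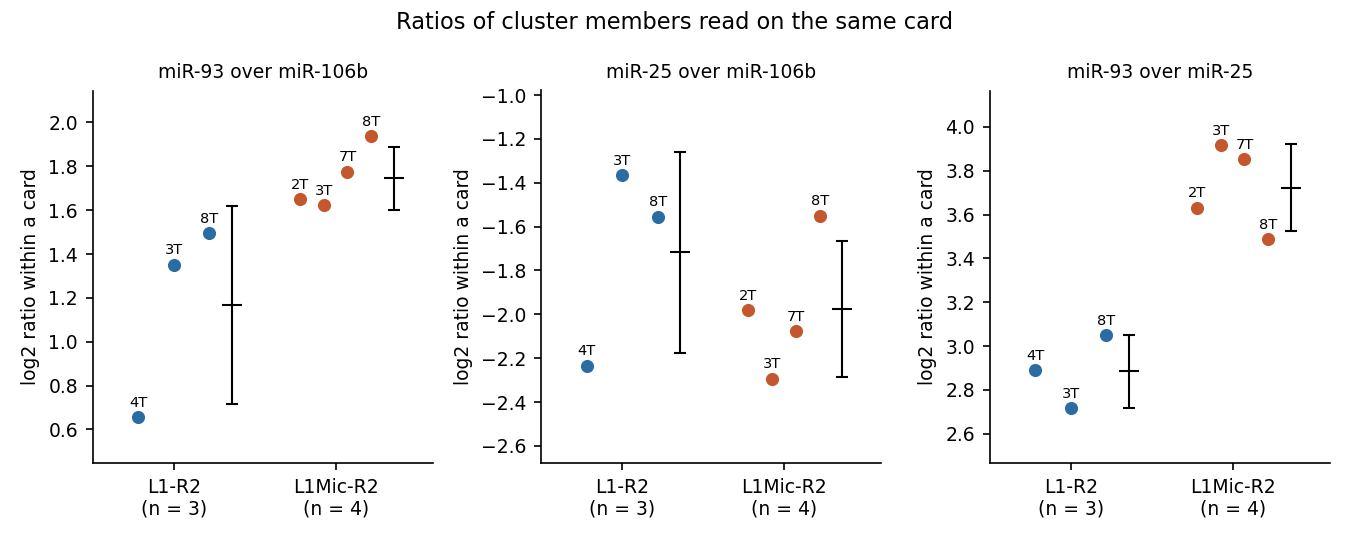
Log2 ratios between members within a card (higher means more of the first-named microRNA) in the 3 L1-R2 and 4 L1Mic-R2 lines; points are lines, dashes means and bars SD. Both ratios with miR-93 on top separate the groups, with means of 1.17 and 1.75 over miR-106b and 2.89 and 3.72 over miR-25, whereas miR-25 over miR-106b overlaps.

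How closely the members followed one another across the 7 lines depended on the pair, the scale and the lines. Within a line, the members share card and RNA input. In raw Ct over the 7 lines, Pearson's r was 0.17 between miR-106b and miR-93. It was 0.62 for that pair with group means removed and 0.93 without the 2 lines farthest from the median. It was 0.31 between miR-106b and miR-25 (0.19 with group means removed, -0.58 without the 2 farthest lines). It was -0.72 between miR-93 and miR-25 (0.19 with group means removed, -0.79 without the 2 farthest lines). In normalized Ct the 3 values were -0.16, -0.20 and -0.62. miR-106b followed U6 in raw Ct (r = 0.93), whereas miR-93 and miR-25 had r = 0.35 and 0.11 with it.

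The mean normalized Ct of the 3 members, a description of the cluster as a whole, ranged over 0.272 cycles in the 7 lines and was 0.07 lower in L1Mic-R2. The 5 microRNAs whose normalized Ct was most like this mean, of 131 detected in all lines, were miR-106a (r = 0.87), miR-193a-3p (0.76), miR-502-3p (0.75), miR-422a (0.73) and miR-590-5p (0.71), each over 7 lines. Taken singly, a comparison chosen after the values were seen, miR-93 was most like miR-17 (r = 0.97) and miR-20b (0.93), miR-106b most like miR-449a (0.89), and miR-25 most like let-7b (0.76). In raw Ct, miR-93 had r = 0.83 with miR-17, 0.94 with miR-20b and 0.96 with miR-18a. The raw values were 0.90 for miR-106b with miR-449a and 0.61 for miR-25 with let-7b.

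**Figure D3:**
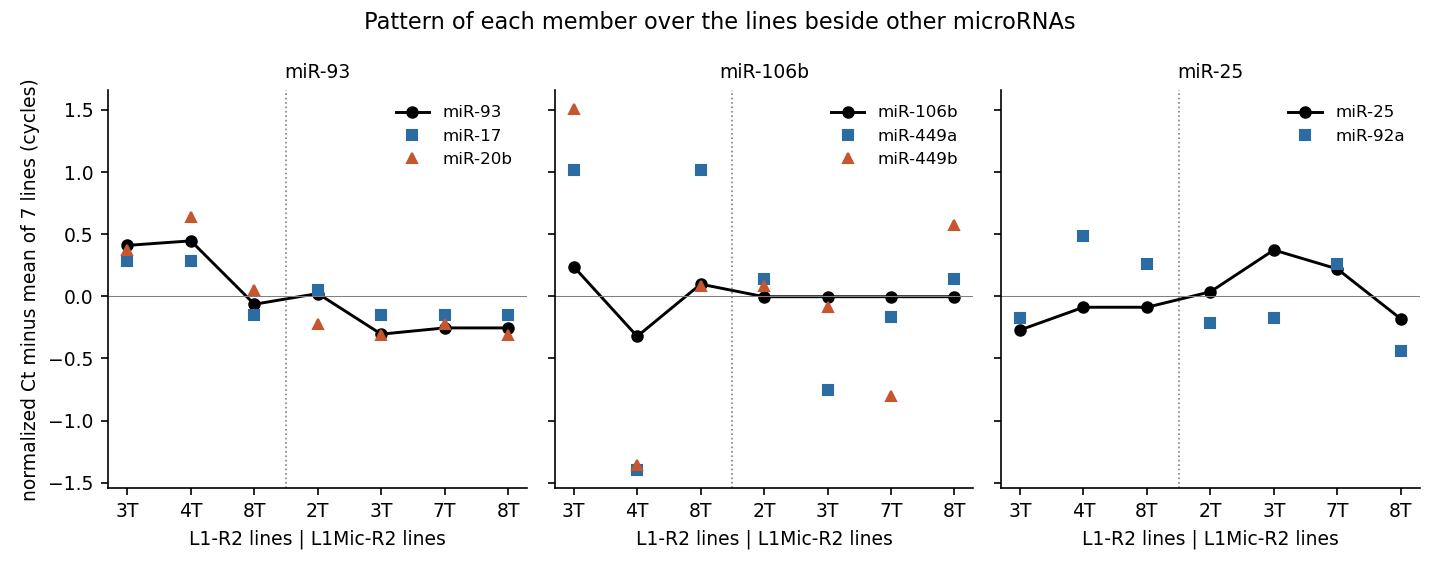
Normalized Ct of each member minus its mean over the 7 lines (cycles, lower is more RNA; black points joined by a line) in the L1-R2 and L1Mic-R2 lines, 1 point per line. Beside them are miR-17 and miR-20b for miR-93, miR-449a and miR-449b for miR-106b, and the same-seed miR-92a for miR-25; miR-93 stays close to miR-17 (r = 0.97), miR-106b is at one value in all L1Mic-R2 lines, and miR-25 and miR-92a part.

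The paralogous clusters arose from the same ancestral cluster and supply the other abundant members of both seed families. All 10 of their microRNAs were tested, and 3 had an unadjusted p under 0.05, all higher in L1Mic-R2, against 9.39% of the microRNAs tested in that direction. None was lower, against 9.94%. Their median log2 fold change was 0.37, against 0.06 over all tested. miR-18a alone passed after adjustment, and its seed, AAGGUGC, differs from those of the miR-106b-25 members.

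miR-18a, of the cluster from miR-17 to miR-92a, had a raw Ct of 31.63 to 32.69 in L1-R2 and 30.31 to 30.97 in L1Mic-R2. It was higher in all 4 L1Mic-R2 lines, with a log2 fold change of 1.72 (SE 0.31, limma adjusted p = 0.0392). Its relative miR-18b, whose sequence differs from it by 1 base edit, had a log2 fold change of 3.86 (SE 0.83, adjusted p = 0.0545 by limma). miR-18b was detected in 6 lines. Its raw Ct was 36.26 to 38.39 in L1-R2, close to the detection limit of 38, against 31.82 to 35.27 in L1Mic-R2. miR-20b, which shares the seed of miR-93, had a log2 fold change of 0.62 (SE 0.18, adjusted p = 0.105 by limma). Its normalized groups did not overlap, as was so for 19.3% of the microRNAs tested. In raw Ct they overlapped, at 24.49 to 24.99 in L1-R2 and 24.24 to 24.69 in L1Mic-R2.

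The other members of the paralogous clusters lay between -0.13 for miR-20a and 0.62 for miR-363 and passed at neither level. miR-17 was at 0.24, miR-19a at 0.41, miR-19b at -0.09, miR-92a at 0.33 and miR-106a at 0.10 on the log2 scale. miR-19b and miR-92a are encoded in both paralogous clusters, so their values cannot be given to one.

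Of the 9 listed microRNAs with a seed of the cluster, 7 were tested and 1, miR-20b, had an unadjusted p under 0.05, against 19.3% of all tested; their median log2 fold change was 0.33, against 0.06 over all tested. miR-519d was detected in 1 line and miR-367 was Undetermined in all. miR-32, which shares the seed of miR-25, was detected in 5 lines with a log2 fold change of 1.39 (SE 1.25).

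**Figure D4:**
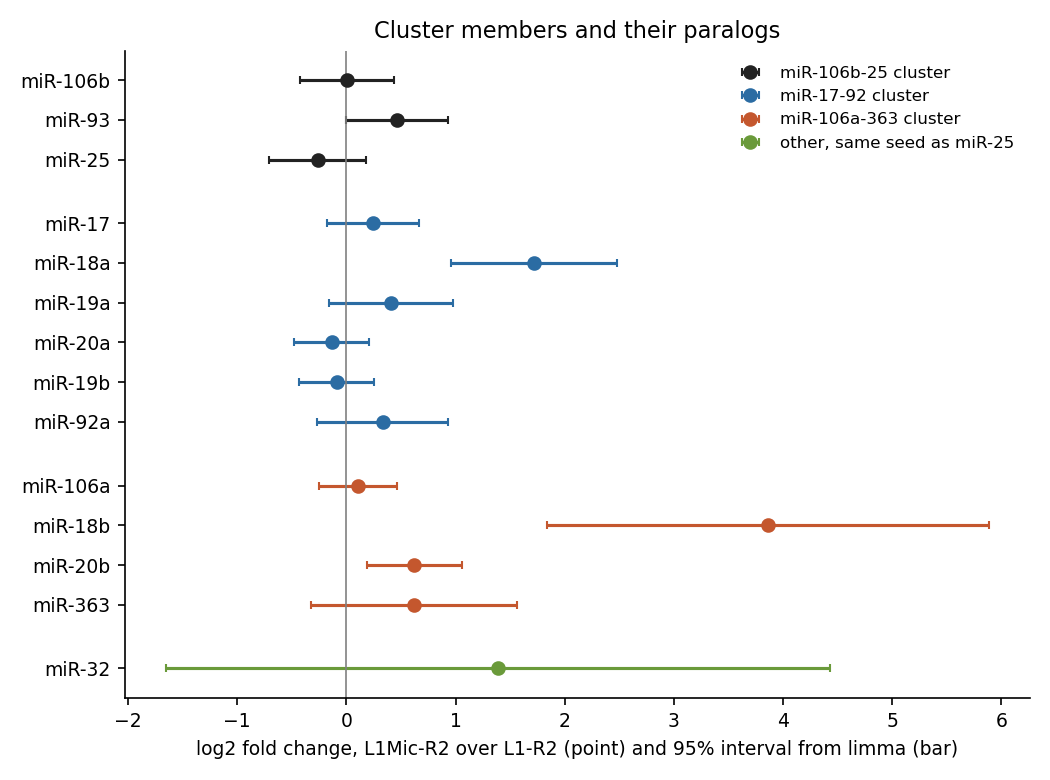
Log2 fold change, L1Mic-R2 over L1-R2, with its 95% interval from limma for the cluster members, the 10 microRNAs of the paralogous clusters and miR-32. miR-18a (1.72) and miR-18b (3.86) stand farthest from 0, and the intervals of all 3 members of the miR-106b-25 cluster include 0.

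Ratios to the nearest relatives were chosen after the values were seen and are given as descriptions, with no test. The log2 ratio of miR-93 to miR-17 was -4.24 in L1-R2 and -4.07 in L1Mic-R2 and spanned 0.443 over the 7 lines, and that of miR-93 to miR-20b was -1.32 and -1.21, with a span of 0.282. Both overlapped between groups, whereas the ratio of miR-93 to its cluster partner miR-25 spanned 1.20. The ratio of miR-25 to miR-92a went from -0.95 ± 0.12 (SD, n = 3) to -1.38 ± 0.13 (SD, n = 4) without overlap. That of miR-106b to miR-17 went from -5.40 ± 0.28 (SD, n = 3) to -5.82 ± 0.17 (SD, n = 4). Its groups did not overlap in raw Ct, but they did in normalized Ct, where L1-R2 line 8T was at -5.80. Within the cluster from miR-17 to miR-92a, the raw ratio of miR-17 to miR-20a did not overlap between groups, at 4.12 ± 0.12 (SD, n = 3) and 4.65 ± 0.17 (SD, n = 4), but in normalized Ct L1-R2 line 8T (4.48) fell among the L1Mic-R2 lines. The raw ratios of miR-17 and of miR-20a to miR-92a, and of miR-106a and of miR-20b to miR-363, overlapped between groups. Over all pairs of microRNAs detected in every line, 26.5% did not overlap in raw Ct.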

How the data were processed

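Ct values of 7 TaqMan Array A cards, 1 per line, were used as deposited by the authors: per the labels, total RNA (Trizol) was reverse transcribed with Megaplex primers and read on a 7900HT instrument; the study set a fluorescence threshold of 0.3. Wells marked Undetermined were set to 40. Samples were grouped by their labels; the file names of L1-R2 lines 3T and 4T are exchanged against the labels, which were followed. Each member had 1 well per card. Ct of 381 assays was quantile normalized, and 40 minus Ct was compared with limma 3.58.1 (R 4.3.3) over the 181 microRNAs below Ct 38 in at least 3 lines, with Benjamini-Hochberg adjustment. Tested on simulated data, the fit made more false calls than its nominal rate, so adjusted p-values close to the threshold are less firm. Within-card ratios used raw Ct and exact two-sided permutation tests (scipy 1.17.1). The members and lists were chosen with earlier results of these data known. Named microRNAs were the 3 members, U6, RNU44 and RNU48, the paralogous, same-seed and E2F-linked lists, and the 5 microRNAs closest to the members' mean by correlation. Some cell type markers, and the microRNAs closest to single members (let-7b among them), were named after their values were seen. Alternatives changed the reference, Ct limit, filter, test and replicate block, and left out each line. P-values measure only the spread between these lines.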

Additional observations from a re-analysis of the deposited data

Results flagged for a closer look

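In 3 of 24 sets of 4 L1Mic-R2 values examined, 1 line stood far from the others, where chance gives about 1.2. miR-93 in line 2T lay above the others in normalized Ct, its gap to the nearest being 0.847 of the range of the group. miR-17 in line 2T and miR-16 in line 8T each had a gap of 1 in normalized Ct, because the other 3 lines had equal ranks and so equal normalized values.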

How the results depend on the processing

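No member passed an adjusted p of 0.05 under any of 19 alternatives. The log2 fold change of miR-93 was positive in all of them, but changes of Ct limit, filter or test left it at 0.46 by construction. Its range was 0.39 to 1.20 (limma adjusted p 0.0842 to 0.656), or 0.33 to 0.69 with a line left out. Its unadjusted p was under 0.05 in 8 of the 19: 6 changes of setting (RNU44 and RNU48, the mean of detected microRNAs, Ct limited to 35, detection in all lines, trend and robust limma, the Student test) and 2 left-out lines (L1-R2 8T and L1Mic-R2 2T). That of miR-25 was under it in 1, raw Ct. miR-106b turned negative with raw Ct (-0.19), with U6 (-0.13) and with the file name block (-0.11), and ran from -0.11 to 0.15 with a line left out, negative without L1-R2 3T, L1-R2 8T or L1Mic-R2 3T. miR-25 turned positive with RNU44 and RNU48 (0.36) and ran from -0.37 to -0.18 with a line left out. The mean Ct difference of the 3 members, -0.07, was 0.0786 with raw Ct, 0.0228 with U6, -0.72 with RNU44 and RNU48, -0.16 relative to the mean of detected microRNAs, and -0.12 to -0.03 with a line left out.

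With quantile normalized Ct, the ratio differences were 0.45 for miR-93 over miR-106b and 0.72 for miR-93 over miR-25, neither passing after adjustment. With a line left out they were 0.32 to 0.74 (lowest without L1-R2 line 4T) and 0.75 to 0.92, and -0.52 to -0.08 for miR-25 over miR-106b; those designs cannot go below an exact p of 0.0667 or 0.1.

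The 9 microRNAs at an adjusted p under 0.05 became 0 with RNU44 and RNU48, without the detection filter, by the Student test and with either replicate block, 14 among microRNAs detected in all lines, 21 with trend and robust limma, and 0 to 4 whichever line was left out. The 35 at an unadjusted p became 19 with the line number block, 27 with the file name block and 28 to 39 with a line left out. The 3 paralogous microRNAs became 6 with RNU44 and RNU48 and 5 relative to the mean of detected microRNAs. They became 1 with the line number block, 2 with the file name block, and 3 to 4 with a line left out. The 1 same-seed microRNA became 0 with raw Ct, U6 or the line number block, and stayed 1 with the file name block. This count became 3 relative to either the mean of detected microRNAs or RNU44 and RNU48, and 1 to 2 with a line left out (2 without L1Mic-R2 line 2T).

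Lines 3 and 8 occur in both groups, but their deviations correlated at only -0.044 and -0.197, so the numbers do not show a pairing. With line number as a replicate block the log2 fold changes were 0.17 for miR-106b, 0.45 for miR-93 and -0.28 for miR-25, and the ratio differences 0.36 for miR-93 over miR-106b, -0.46 for miR-25 over miR-106b and 0.82 for miR-93 over miR-25. With file name numbers the block gave -0.11, 0.47 and -0.18, and 0.70, -0.03 and 0.73. Those fits have 1 residual degree of freedom.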

Other observations

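The E2F-linked microRNAs, listed because E2F factors also act on the host gene of the cluster, were all detected in the 7 lines. Of these 4, miR-15b had an unadjusted p under 0.05, with a log2 fold change of 0.84 (SE 0.22, limma adjusted p = 0.0819); over all microRNAs tested 19.3% had such a p. miR-16 was at -0.05, miR-449a at 0.37 and miR-449b at 0.14, and the list's median was 0.25, against 0.06 over all tested.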
